A study of Mus musculus with 8 samples.

Results

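Replication-dependent core histone genes were followed across 8 ribosome profiling libraries from mouse brain at postnatal day 5. They were chosen as the protein-coding entries whose symbol names a core histone of the Hist1, Hist2, Hist3 or Hist4 cluster (H2A, H2B, H3 or H4), with 1 transcript per gene, which gave 61 of the 21874 coding genes. The 61 genes comprised 19 H2A, 17 H2B, 12 H3 and 13 H4 genes, and 49 of them belong to the Hist1 cluster, 9 to Hist2, 2 to Hist3 and 1 to Hist4. Linker histones and the replication-independent variants, such as H3f3b and H2afz, were kept apart.

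The study compared ribosome populations in mice that model a severe form of spinal muscular atrophy (SMA), in which motor neurons degenerate because too little of the survival motor neuron protein SMN is made. All animals were of the FVB background and carried the human SMN2 transgene, which makes a limited amount of SMN. Ribosomes of phenotypically normal Smn+/-; SMN2tg/0 brains were digested with RNase I, pelleted and precipitated with an antibody to SMN (3 libraries) or with a control IgG (1 library). Ribosomes of Smn-/-; SMN2tg/0 brains, which lack mouse Smn and were early symptomatic, were profiled by RiboLace, a capture of actively translating ribosomes (2 libraries), or from polysomes separated on a sucrose gradient (2 libraries). Whole brains were used, so fewer cells of a type and less RNA per cell cannot be told apart. No library allows SMA and control animals to be compared within 1 protocol.

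Total counts over coding genes, with 1 transcript per gene, were 138239, 133295 and 237760 (SMN immunoprecipitates), 206690 (IgG), 47846 and 39375 (RiboLace) and 1661834 and 2295393 (polysomes). All 10 neuronal marker genes checked had reads in every library. Their summed level lay between 9552 and 11176 CPM (read counts scaled to a common library size) in the immunoprecipitates and RiboLace, and was 6212 and 5774 CPM in the polysomes. Smn1, the targeted gene, had 22, 13 and 34 reads in the SMN immunoprecipitates, 6 in IgG, 2 and 0 in RiboLace and 51 and 77 in the polysomes. These counts are per transcript and not per exon, so they do not check the genotype.

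A pair of each core histone forms the octamer around which DNA is wrapped in the nucleosome. The replication-dependent genes supply these proteins in S phase, when new DNA is packaged, and in the early postnatal brain dividing cells are found above all among cerebellar granule cell progenitors and glial progenitors. Unlike other animal mRNAs, theirs typically end without a poly(A) tail. They then end in a conserved stem-loop, which is bound by the protein Slbp. This 3' end is cut with the help of the U7 small nuclear ribonucleoprotein, whose Sm-like ring is assembled by the SMN complex.

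The genes are nearly copies of each other, and this shapes what can be read from single members. Coding lengths ran from 312 nt, the length of all 13 H4 genes, to 411 nt, that of all 12 H3 genes. In the Hist1 cluster, leaving out the testis forms Hist1h2aa and Hist1h2ba, the spread of counts between members of a class, as a chi-square per degree of freedom against equal levels, lay between 0.417 and 5.08 over the libraries, where 1 is the value of independent counts at 1 common level. Over all members of a class it reached 22.1 in H2A, 34.1 in H2B, 10.5 in H3 and 4.53 in H4. All 61 members had a read, and no pair had identical counts in all 8 libraries. The noncoding copies in the table, the pseudogene Hist1h2aj, the lincRNA Hist2h2bb and the pseudogene Hist3h2bb-ps, were listed at 165, 155 and 222 reads in polysome replicate 1, against a median of 222 over the coding members. The sources used here do not say how reads that match several copies were assigned, so the value of a single copy is uncertain and class sums are given first. For the same reason, counts of members called in any comparison below are not counts of independent observations.

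RefSeq entries were matched by symbol or synonym for 60 of the 61 genes, 1 of them (Hist1h2al) to an entry under a pseudogene symbol, and promoter sequences (GRCm38.p6) were found for 54. In the 250 bases upstream of the start, on both strands, CCAAT occurred in 43 of 54 promoters (79.6%), against 34.5% of 27025 promoters in the same table. It was present in 17 of 17 H2A and 15 of 15 H2B promoters but in 3 of 12 H4 promoters. The octamer ATTTGCAT occurred in 7 H2A and 5 H2B promoters and in none of the 10 H3 or 12 H4 promoters, which made 22.2% of all members against 1.61% in the table. TATAAA occurred in 46.3% against 13.0%. Head-to-head pairs of an H2A and an H2B gene numbered 9, with starts 164 to 281 bases apart. Promoters are shown for 1 such pair, for the H3 and H4 genes described most below, and for Hist3h2a and Hist4h4, which had low values against polysomes for their classes. Each is the 150 bases upstream of the start, on the gene's strand, with matches to the 3 motifs in capitals.
Hist1h2ae (chr13:23571221-23571370, minus strand): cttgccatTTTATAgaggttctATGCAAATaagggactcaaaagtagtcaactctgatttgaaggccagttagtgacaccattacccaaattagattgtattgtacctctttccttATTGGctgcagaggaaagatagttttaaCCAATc
Hist1h2bg (chr13:23571250-23571399, plus strand): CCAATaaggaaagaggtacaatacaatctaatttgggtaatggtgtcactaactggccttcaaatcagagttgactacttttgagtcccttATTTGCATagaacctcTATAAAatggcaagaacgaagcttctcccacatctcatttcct
Hist1h3c (chr13:23745522-23745671, minus strand): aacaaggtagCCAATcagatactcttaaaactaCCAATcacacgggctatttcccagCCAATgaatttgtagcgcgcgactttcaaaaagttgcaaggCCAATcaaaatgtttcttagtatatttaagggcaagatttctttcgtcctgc
Hist1h4c (chr13:23698459-23698608, minus strand): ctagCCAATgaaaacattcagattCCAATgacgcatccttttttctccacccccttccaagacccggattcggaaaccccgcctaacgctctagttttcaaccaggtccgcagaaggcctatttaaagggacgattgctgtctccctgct
Hist3h2a (chr11:58954535-58954684, plus strand): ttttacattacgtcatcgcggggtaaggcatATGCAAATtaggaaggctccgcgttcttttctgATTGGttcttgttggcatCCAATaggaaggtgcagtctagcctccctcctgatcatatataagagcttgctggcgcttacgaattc
Hist4h4 (chr6:136804432-136804581, minus strand): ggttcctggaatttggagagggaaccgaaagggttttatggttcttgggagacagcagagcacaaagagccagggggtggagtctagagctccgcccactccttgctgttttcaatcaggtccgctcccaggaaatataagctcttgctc

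Hist1h2ae and Hist1h2bg share 1 upstream region read from opposite strands, so a single octamer and a single TATAAA match serve both windows. The Hist3h2a window holds CCAAT and the octamer, and the Hist4h4 window holds none of the 3 motifs. The window of Hist1h4h, not shown, holds none either, and that gene was called higher over polysomes in both RiboLace and SMN. These matches describe the letters in the windows only.

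Core histone genes took up 1.87%, 1.54% and 0.993% of coding-gene counts in the SMN immunoprecipitates and 0.987% in IgG. The share was 1.82% and 1.74% in RiboLace and 0.895% and 0.854% in polysomes. Both RiboLace libraries thus stood near the highest SMN library, both polysome libraries were lowest, and SMN replicate 3 lay at the IgG value. The counts behind these shares were 2590, 2049, 2360, 2039, 869, 684, 14876 and 19599 in the same order. The 95% Wilson interval of a share was widest in RiboLace, 1.70 to 1.94% and 1.61 to 1.87%, and covers counting error only. When the counts of all coding transcripts of each gene were used, the shares were 1.01%, 1.05%, 0.531%, 0.533%, 1.12%, 1.06%, 0.576% and 0.546%, so SMN replicate 3 and IgG then lay slightly below both polysome libraries.

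**Figure D1:**
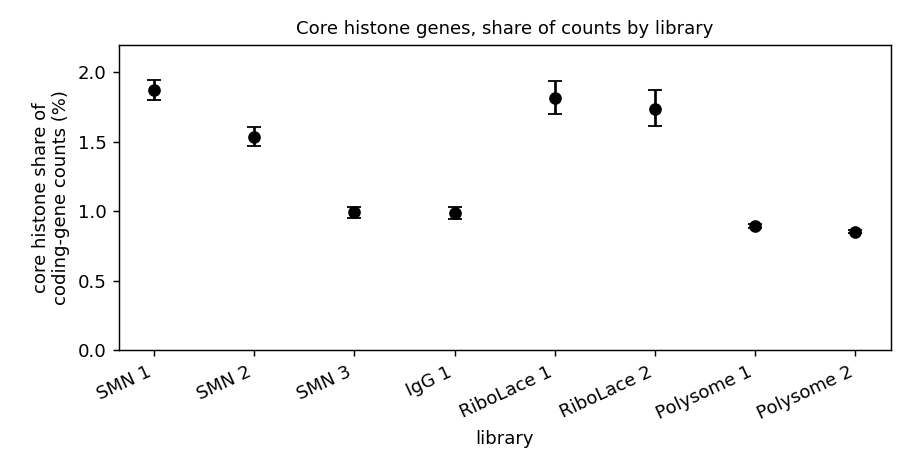
Share of coding-gene counts (percent, 1 transcript per gene) taken by the 61 core histone genes in each of the 8 libraries; bars are 95% Wilson intervals. RiboLace libraries sit at 1.82 and 1.74%, polysomes at 0.895 and 0.854%, and the SMN libraries range from 0.993 to 1.87% with IgG at 0.987%.

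H4 had the highest footprint density of the classes in every library. Its summed level per kilobase of coding length was 21143, 19451 and 14562 CPM per kb in the SMN immunoprecipitates, 14382 in IgG, 21377 and 21546 in RiboLace, and 9015 and 8346 in polysomes. Because a nucleosome holds the same number of each core histone, the classes were set against H4 within each library. The replication-independent variants kept apart here are forms of H2A and H3 and are not in these sums. The ratios therefore do not measure the supply of each histone to nucleosomes. H2A was at 0.722, 0.563 and 0.491 of the H4 density in the SMN libraries, 0.480 in IgG, 0.511 and 0.440 in RiboLace, and 0.667 and 0.668 in polysomes. H2B was at 0.545, 0.411, 0.329, 0.384, 0.462, 0.578, 0.583 and 0.617 in the same order. H3 was at 0.634, 0.591, 0.398, 0.375, 0.528, 0.392, 0.496 and 0.515. The polysome pair agreed closely in all 3 ratios, whereas of the SMN libraries replicate 1 had the highest ratios and replicate 3 the lowest, close to IgG. The table lists several coding transcripts for 4 H2B genes, and counting all of these raised the H2B ratio, to 0.714 and 0.755 in polysomes, but left H4 densest in every library.

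**Figure D2:**
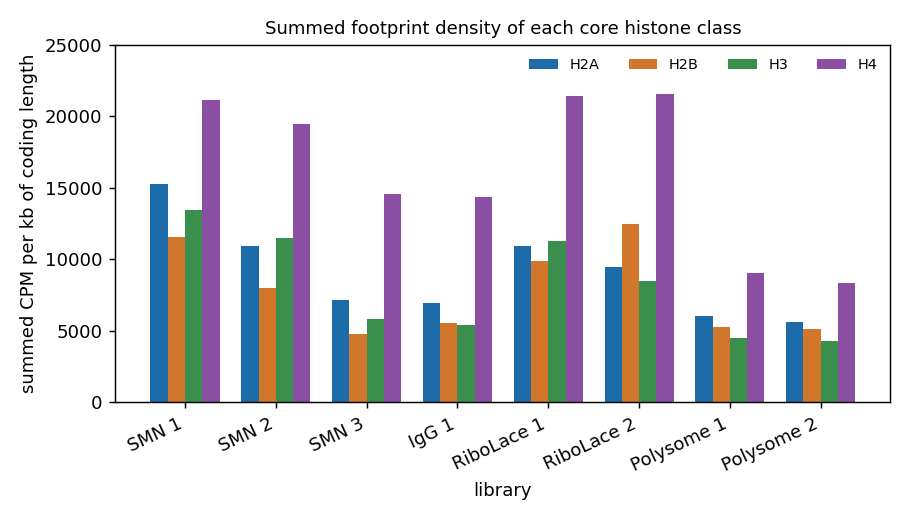
Summed CPM per kilobase of coding length for H2A, H2B, H3 and H4 in each library. H4 is the tallest bar in all 8 libraries, from 8346 in polysome replicate 2 to 21546 in RiboLace replicate 2.

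As a share of core histone counts, H4 made up 30.8% ± 0.467 in polysomes (SD, n = 2), 35.2% ± 1.10 in RiboLace (n = 2), 34.0% ± 5.01 in the SMN immunoprecipitates (n = 3) and 38.9% in IgG. H2B made up 22.8% ± 0.593 in polysomes, 22.6% ± 4.26 in RiboLace, 17.5% ± 1.92 in the SMN immunoprecipitates and 18.4% in IgG. The H2B share of every SMN library, 15.9 to 19.7%, was below both polysome values, and IgG was below them too. H2A made up 25.9% ± 0.365, 21.0% ± 1.56, 24.8% ± 1.56 and 23.4% in the order polysomes, RiboLace, SMN and IgG. H3 made up 20.5% ± 0.239, 21.3% ± 3.80, 23.7% ± 2.79 and 19.2%, with overlapping ranges between polysomes and the other replicated groups. Groups of 1 to 3 libraries were not tested on these shares.

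RiboLace and polysome libraries were compared first, since both come from SMA brains. They differ in which ribosomes were taken, and also in capture protocol and depth, and these cannot be told apart. Core histone genes were higher in RiboLace: 24 of the 61 genes rose (adjusted p under 0.05 in edgeR's quasi-likelihood test, Benjamini-Hochberg over 10807 genes) and none fell. Over all genes tested 1.31% were called higher and 0.925% lower. The called members were 10 of 13 H4, 6 of 12 H3, 6 of 17 H2B and 2 of 19 H2A genes. Median reads per member in the RiboLace libraries were 21 and 19 for H4, 17 and 9 for H3, 11 and 11 for H2B and 9 and 8 for H2A. Members with fewer reads pass less readily, so the numbers called do not by themselves rank the classes. The median log2 fold change of the members was 0.97, against -0.29 over all genes, and 59 members were above 0, against 36.8% of all genes. Both RiboLace libraries lay above both polysome libraries for 53 members, against 21.2% of all genes. No member lay below without overlap, against 32.8%. Near-copies may share reads, so these member counts are not independent observations.

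Of the H4 genes, Hist1h4c stood at 468 and 792 CPM in RiboLace and 196 and 185 CPM in polysomes. Its log2 fold change was 1.56 ± 0.25 (SE; edgeR adjusted p = 1.08e-07). Hist1h4h, the most abundant H4 member over the 8 libraries, stood at 736 and 656 CPM in RiboLace and 259.6 and 241 in polysomes, a log2 fold change of 1.35 ± 0.24 (adjusted p = 1.79e-06). Both RiboLace values exceeded both polysome values by more than the difference between replicates. Hist1h4f was at 647 and 519 against 207 and 192 CPM, a log2 fold change of 1.43 (edgeR adjusted p = 2.76e-06), and Hist1h4d, among the 3 most abundant H4 members, rose by 1.29 (adjusted p = 2.13e-05). The 3 H4 genes that did not pass were Hist1h4a, Hist2h4 and Hist4h4, with log2 fold changes of 0.87, 0.87 and 0.38.

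Of the H3 genes, Hist1h3a, which encodes the H3.1 form, stood at 535 and 273 CPM in RiboLace and 166 and 153 CPM in polysomes, a log2 fold change of 1.26 ± 0.29 (edgeR adjusted p = 0.00166). Hist1h3e and Hist1h3d, which encode the H3.2 form, stood at 468 and 409.9 CPM and at 379 and 465 CPM in RiboLace. Their polysome values were 191 and 168 CPM and 166 and 166 CPM. Both had groups that did not overlap and rose, by 1.18 ± 0.28 and 1.20 ± 0.29 on the log2 scale (adjusted p = 0.00324 and 0.00367). The other called H3 genes, named after their values were seen, were Hist2h3c1, Hist1h3g and Hist2h3b, and Hist1h3c had the lowest value of the class, 0.53.

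Of the H2B genes, Hist1h2bj stood at 335 and 383 CPM in RiboLace and at 107 and 108 CPM in polysomes, the largest log2 fold change of any member, 1.59 ± 0.32 (edgeR adjusted p = 0.000128). Hist1h2bc was at 290.0 and 492 CPM against 135 and 141 CPM, and Hist1h2bg at 312 and 465 CPM against 149 and 141 CPM. They rose by 1.33 and 1.26 on the log2 scale (adjusted p = 0.00159 and 0.00352). Hist1h2be, also among the 3 most abundant H2B members, rose by 1.13 (adjusted p = 0.0266). All 4 had both RiboLace libraries above both polysome libraries. The H2A genes moved least. Only Hist2h2aa1, at 446 and 219 against 138 and 129 CPM, and its neighbour copy Hist2h2aa2 passed the test, with log2 fold changes of 1.24 ± 0.32 and 1.12 ± 0.34 (adjusted p = 0.00862 and 0.0461). Hist1h2ae and Hist1h2ap, the other abundant H2A members, had log2 fold changes of 0.81 and 0.77 and did not pass.

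The RiboLace libraries were shallow, with a median of 13 and 9 reads per member, and the number of called members moved with the test. DESeq2 called 27 members, limma-voom called none and a fit of all 8 libraries called 8, while 38 of 59 passed with a minimum count of 50. Without RiboLace replicate 1, 2 members passed, and without replicate 2, 8 passed; without polysome replicate 1 or 2, 11 and 12 of 48 passed. The median log2 fold change of the members stayed between 0.77 and 1.20 under these and all other alternatives run. The median over all genes, -0.29 in the main fit, also moved with the filter and the test. It was -0.72 without a filter, -0.058 with a minimum count of 50 and -0.048 with limma-voom. Other coding genes with a coding region of 312 to 411 nt had a median of 0.032, and 2 of 351 rose. Red blood cell genes moved with RiboLace as well: the summed level of 6 erythroid markers was 5621 and 6859 CPM in RiboLace and 1927 and 2594 CPM in polysomes, and 4 of the 5 tested rose, while Alas2 and Slc4a1 had no read in either RiboLace library. Of the 10 neuronal markers, 2 were called higher and 1 lower. The part of cell makeup in the histone result was not tested.

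**Figure D3:**
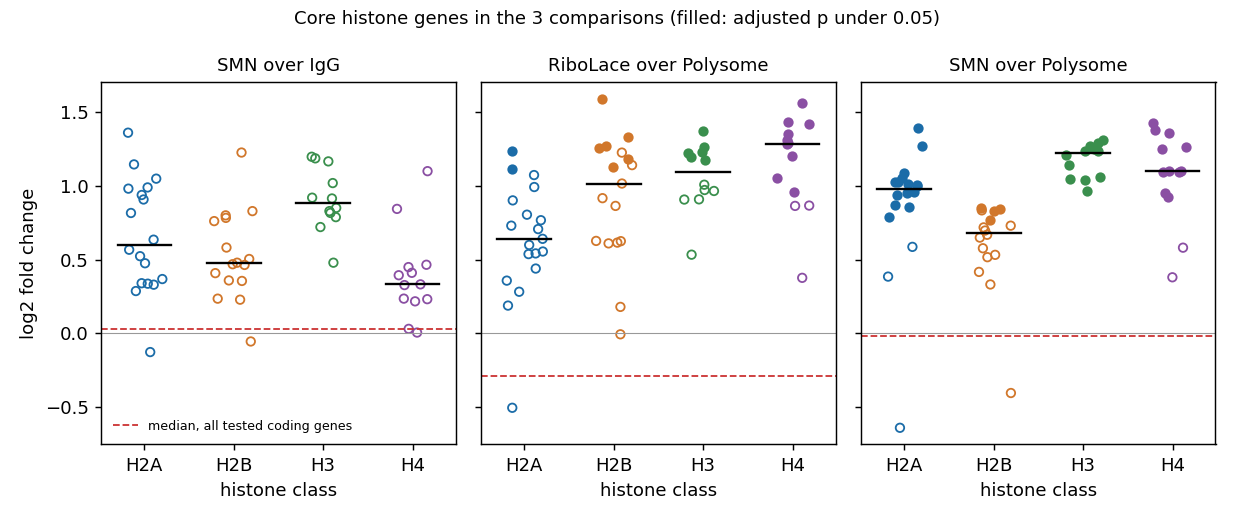
Log2 fold changes of the core histone genes by class in the 3 comparisons (SMN over IgG, RiboLace over polysome, SMN over polysome). Filled points passed an adjusted p of 0.05 (0, 24 and 42 members), black lines are class medians and the dashed red line is the median of all coding genes tested (0.032, -0.29 and -0.015).

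The comparison of SMN with IgG immunoprecipitates addresses which footprints are bound to SMN beyond unspecific pull-down. With 1 IgG library, 1 of 5517 genes passed the test, so a count of 0 does not show that the members did not differ. Of the members, 0 of 59 tested passed in either direction, where 0% of 5517 genes were called higher and 0.0181% lower. At an unadjusted p under 0.05 edgeR gave 7 members higher and none lower. At an adjusted p under 0.05 DESeq2 and limma-voom, like edgeR, called none. The median log2 fold change of the members was 0.52, against 0.032 over all genes, and 57 of 59 were above 0, against 52.7%. For 31 members all 3 SMN libraries lay above IgG, against 22.7% of all genes, and no member had all 3 below, against 22.6%. With 1 IgG library its spread was taken to equal that of the SMN libraries.

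The 3 SMN libraries differed among themselves. The median log2 ratio of the 61 members to IgG was 0.95 in replicate 1, 0.60 in replicate 2 and 0.033 in replicate 3, where 61, 51 and 34 members were above 0. The median over all genes was between -0.029 and 0.018 in each. The class medians of the fit were 0.88 for H3, 0.60 for H2A, 0.47 for H2B and 0.33 for H4. H4, which was densest in all libraries, thus had the lowest median against IgG. The median over members was 0.35 without replicate 1 and 0.82 without replicate 3.

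None of the members with the smallest p in each class passed the test. For H3, Hist1h3c stood at 539, 585 and 191 CPM in the SMN libraries and 187 CPM in IgG, a log2 fold change of 1.20 ± 0.53 (edgeR adjusted p = 0.999). Replicates 1 and 2 were well above IgG and replicate 3 was level with it. Hist1h3i had a log2 fold change of 1.17 ± 0.54. For H2A, Hist1h2ak was at 417, 346 and 137 CPM against 113 CPM in IgG, a log2 fold change of 1.36 ± 0.57, and Hist1h2an had 1.15 ± 0.58. For H2B, Hist1h2bb was at 322, 195 and 103 CPM against 84.9 CPM, a log2 fold change of 1.23 ± 0.60, and Hist3h2ba had 0.80 ± 0.58. For H4, Hist4h4 was at 217, 638 and 186 CPM against 158 CPM, a log2 fold change of 1.10 ± 0.55, in which replicate 2 stood far above the others, and Hist2h4 had 0.84 ± 0.55. The edgeR adjusted p was 0.999 for all 8 genes, and IgG lay below all 3 SMN libraries for each. Hist1h4c, the H4 gene with the smallest p against polysomes, was at 548, 532 and 441 CPM against 430.0 CPM in IgG.

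The SMN immunoprecipitates were also set against the SMA polysomes. Genotype and protocol differ together in this comparison and cannot be told apart, and it shares its polysome libraries with the RiboLace comparison. Core histone genes were higher in the SMN libraries: 42 of 59 tested members rose in edgeR's test and none fell, against 16.4% of 6484 genes called higher and 11.1% lower. The called members were all 12 H3, 11 of 13 H4, 15 of 18 H2A and 4 of 16 H2B genes. The median log2 fold change was 0.96, against -0.015 over all genes, and 57 members were above 0, against 49.3% of all genes. For 39 members all 3 SMN libraries lay above both polysome libraries, against 22.6% of all genes, and for 1 member, Hist3h2a, all lay below, against 27.5%. Other genes with coding regions as short had a median of -0.43, with 8 of 202 higher and 45 lower.

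H3 genes had the highest class median, 1.23. Hist2h3c1 stood at 322, 328 and 172 CPM in the SMN libraries and 107 and 109 CPM in polysomes, a log2 fold change of 1.27 ± 0.24 (edgeR adjusted p = 0.00224). Hist1h3f was at 556, 443 and 274 CPM against 176 and 167 CPM (1.29 ± 0.27, adjusted p = 0.00429), and Hist1h3h at 548, 363 and 225 CPM against 147 and 150.2 CPM (1.31 ± 0.29, adjusted p = 0.00513). In all 3 genes the lowest SMN value was replicate 3, and it was still above both polysome values.

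H4 genes had a median of 1.10. Hist1h4c, at the values given above and 196 and 185 CPM in polysomes, rose by 1.43 ± 0.24 on the log2 scale (edgeR adjusted p = 0.000882). Hist1h4i was at 530.2, 469.5 and 431 CPM against 193 and 179 CPM (1.38 ± 0.24, adjusted p = 0.00104), and Hist1h4k at 582, 461 and 372 CPM against 187 and 182 CPM (1.36 ± 0.25, adjusted p = 0.00179). The range of the SMN replicates was smaller than their gap to the polysomes in Hist1h4c and Hist1h4i, and larger in Hist1h4k. IgG was at 430.0, 379 and 356 CPM for the 3 genes, so the control precipitate was also above the polysomes.

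H2A genes had a median of 0.98. Hist1h2al stood at 330.3, 230.3 and 225 CPM in the SMN libraries and 113 and 104 CPM in polysomes, a log2 fold change of 1.27 ± 0.22 (edgeR adjusted p = 0.00099), and Hist1h2af at 443, 328 and 176 CPM against 106 and 121 CPM (1.39 ± 0.27, adjusted p = 0.00257). Hist2h2aa1 rose by 0.96 ± 0.22 (adjusted p = 0.00609). H2B genes had the lowest median, 0.68. Hist1h2bq was at 278, 186 and 181 CPM against 114 and 122 CPM (0.85 ± 0.23, adjusted p = 0.0134), and Hist1h2br and Hist1h2bc rose by 0.83 and 0.77 (adjusted p = 0.018 and 0.0288). The fourth called H2B gene, Hist1h2bh, was named after its values were seen.

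The IgG library was above the polysomes for 49 of 61 members, with a median log2 ratio of 0.29 against -0.11 over all genes with a read in IgG. The class medians of this ratio were 0.79 for H4, 0.36 for H3, 0.19 for H2B and 0.14 for H2A. H4 thus had the highest median in IgG over polysomes and the lowest in SMN over IgG. Both ratios share the 1 IgG library and are descriptions of it.

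The number called against polysomes depended on the libraries and the counting. Without SMN replicate 1, 13 of the members tested passed, and without polysome replicate 1 or 2 none did in edgeR. With the counts of all coding transcripts summed per gene, 16 passed, and with library totals in place of TMM scaling 25 passed and Hist3h2a was lower, while the median of all genes moved to -0.31. The median over the members was 0.67 with library totals and was between 0.65 and 1.24 over all alternatives.

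Hist3h2a, Hist3h2ba, Hist2h4 and Hist4h4 were singled out after their values were seen. The Hist3 genes were the only 2 of 59 tested members with a log2 fold change of SMN over polysome below 0, while Hist2h4 and Hist4h4 lay within the range of the other members. All 4 were among the 8 members with the highest mean CPM in polysomes. Hist3h2a was at 130.4, 151 and 118 CPM in the SMN libraries, 102 in IgG, 201 and 328 in RiboLace and 217 and 198 CPM in polysomes. Its log2 fold change of SMN over polysome was -0.64 ± 0.24 and narrowly missed the threshold (edgeR adjusted p = 0.0558; from 0.00921 to 0.556 over the alternatives, and under 0.05 in limma-voom). Hist3h2ba was at 165, 266 and 142 CPM in the SMN libraries, 108 in IgG, 335 and 191 in RiboLace and 266 and 232 CPM in polysomes, and its log2 fold change of -0.41 ± 0.27 did not pass (adjusted p = 0.269). Without SMN replicate 2 both Hist3 genes were called lower (edgeR adjusted p = 0.0131 and 0.0121).

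Hist2h4 was at 278, 434 and 162 CPM in the SMN libraries and 158 in IgG, against 232 and 202 CPM in polysomes, a log2 fold change of 0.38 ± 0.30. Hist4h4 was at 217, 638 and 186 CPM against 237 and 213 CPM, a log2 fold change of 0.58 ± 0.37. Neither passed (edgeR adjusted p = 0.36 and 0.243), and without SMN replicate 2 both values fell below 0, to -0.069 and -0.18. In RiboLace over polysome the 4 genes had log2 fold changes of 0.19 (Hist3h2a), -0.0066 (Hist3h2ba), 0.87 (Hist2h4) and 0.38 (Hist4h4). The Hist3 genes made up 5.19% ± 0.223 of core histone counts in polysomes (n = 2), 2.77% ± 0.0113 in RiboLace (n = 2), 1.95% ± 0.553 in the SMN libraries (n = 3) and 1.81% in IgG.

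**Figure D4:**
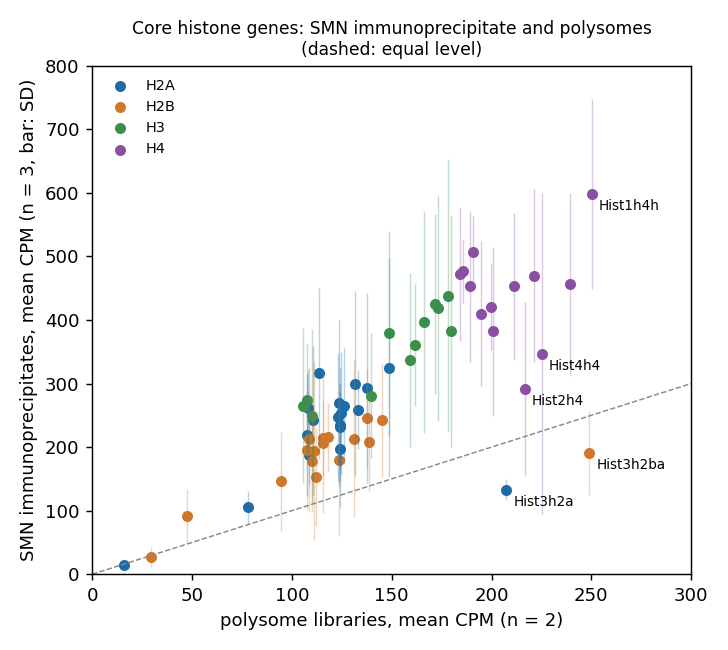
Mean CPM of each core histone gene in the polysome libraries (x axis, n = 2) and the SMN immunoprecipitates (y axis, n = 3; bars are SD), coloured by class; the dashed line marks equal levels. Hist3h2a (207 and 133 CPM) and Hist3h2ba (249 and 191 CPM) lie below the line, as do, just, the low genes Hist1h2aa (15.9 and 14.0 CPM) and Hist2h2be (29.7 and 26.6 CPM), and Hist1h4h (250.2 and 598 CPM) lies farthest to the upper right.

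Hist3h2a, Hist2h4 and Hist4h4 are listed with long 3' UTRs (1700, 1311 and 2515 nt), and Hist3h2ba with 213 nt. The median over all members was 76 nt. Long 3' UTRs were also listed for Hist1h2bq and Hist2h3c1 (1688 and 1208 nt), which were called higher in SMN over polysome. Hist1h2be (1833 nt) was not called in that comparison (log2 fold change 0.52, edgeR adjusted p = 0.138), and Hist2h2be (2192 nt) was not tested in it. Of members with a 3' UTR over 200 nt, 9 of 14 tested were called higher there, with a median log2 fold change of 0.84. Among the other members it was 33 of 45 and 1.00, and 16.4% over all genes. A link with 3' UTR length was not tested.

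Testis forms and Hist2h2be were at the bottom of the range. Hist1h2aa, a testis H2A gene, was at 0 to 27.3 CPM over the 8 libraries and Hist1h2ba, its head-to-head testis H2B partner, at 44.9 to 164 CPM. Hist2h2be was at 9.80 to 44.6 CPM. Hist1h2aa and Hist2h2be did not reach the count minimum in either comparison with the SMN libraries. In RiboLace replicate 1 Hist1h2aa had 0 of 47846 reads, and a count of 0 allows up to 3.

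Genes around the core histones were read from lists of related genes. Of 24 tested genes for histone mRNA 3' end formation and the histone locus body, none was called in RiboLace over polysome. Slbp, which binds the stem-loop, had a log2 fold change of -0.064 ± 0.90, and Lsm11, a subunit specific to the U7 particle, 0.11 ± 0.40. In SMN over polysome 2 of 15 were called, both lower, a share near the 11.1% of all genes called lower: Cpsf3, the endonuclease that cuts histone pre-mRNA (-0.98 ± 0.29, edgeR adjusted p = 0.0222), and Snrpg, an Sm ring protein (-1.52 ± 0.41, adjusted p = 0.0145). Lsm11 was at 0.17 ± 0.25 there and -0.41 ± 0.52 in SMN over IgG, where none of 12 passed.

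Of the histone chaperones, none of 16 was called in RiboLace over polysome and none of 12 in SMN over IgG. In SMN over polysome 2 of 13 were called higher and 2 lower, near the 16.4% and 11.1% of all genes: Atrx, a chromatin remodeler that works with the H3.3 chaperone Daxx, and Ipo4, an importin for H3 and H4, rose by 1.00 and 1.11, and Asf1a and Nap1l4 fell by 1.22 and 0.95 on the log2 scale (edgeR adjusted p from 0.00434 to 0.0497). Nasp, a chaperone of soluble H3 and H4, was at -0.31 ± 0.30. Of the replication-independent variants, none of 7 or 8 tested genes was called in any of the 3 comparisons. Their summed level was 1208, 1187 and 1029 CPM in the SMN libraries, 1058 in IgG, 1517 and 1175 in RiboLace and 1042 and 1031 in polysomes. The variant H3f3b, which encodes H3.3, had log2 fold changes of 0.91 ± 0.29 in RiboLace over polysome and 0.58 ± 0.22 in SMN over polysome (adjusted p = 0.0672 and 0.0662).

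Linker histones, which bind the DNA between nucleosomes, shared only part of the core histone pattern over libraries. Their summed level was 1756, 4146 and 1348 CPM in the SMN libraries, 934 in IgG, 2342 and 1558 in RiboLace and 1773 and 1678 in polysomes. In both sets SMN replicates 1 and 2 were above replicate 3 and IgG. Of the SMN libraries, replicate 2 was highest for linker histones and replicate 1 for core histones. In SMN over IgG the median of 7 linker genes was 1.44 on the log2 scale and none passed, with Hist1h1b at 2.06 ± 0.62 and Hist1h1a at 2.32 ± 0.76 (edgeR adjusted p = 0.742 and 0.921). In RiboLace over polysome, where 24 core histone genes were called, none of the 7 was and their median was 0.15. In SMN over polysome Hist1h1d rose by 1.06 ± 0.38 (adjusted p = 0.0474), and the median was 0.60. The difference between core and linker genes was not tested.

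S phase and proliferation genes, like core histones, had higher summed levels in SMN replicates 1 and 2 than in replicate 3 and IgG. Their summed level over 30 genes was 1625, 1515 and 975 CPM in the SMN libraries, 883 in IgG, 1182 and 792 in RiboLace and 915 and 987 in polysomes. In SMN over polysome 2 of 11 were called higher, a share near the 16.4% of all genes: Mki67 and Top2a, which mark dividing cells (1.86 ± 0.30 and 1.63 ± 0.37, edgeR adjusted p = 0.000735 and 0.00583). In RiboLace over polysome 1 of 21 was called, Tyms, which makes thymidylate for DNA synthesis (3.96 ± 0.68, adjusted p = 1.41e-06), and the median was -0.23. In SMN over IgG none of 9 passed, and all 9 were above 0. The summed level of 6 granule cell progenitor markers was also higher in SMN replicates 1 and 2 than in replicate 3 and IgG. It was 765, 895 and 338 CPM for SMN, 277 CPM for IgG, 379 and 409.9 CPM in RiboLace and 525 and 569 CPM in polysomes. Single markers were sparse, and only 3 of the 6 were tested in SMN over IgG. Atoh1 had no read in SMN replicates 1 and 3 or IgG. Gli1 had none in SMN replicate 3 or IgG, and Barhl1 none in SMN replicate 3. The order thus holds for the sum and not for each marker. SMN replicate 3 and IgG were low together in the summed levels of core histones, S phase genes and progenitor markers, but not only in these. Oligodendrocyte lineage markers were at 1147, 1674 and 902 CPM in SMN and 764 in IgG. Astrocyte markers were at 2460, 2862 and 2382 CPM in SMN and 2094 in IgG. Neural progenitor markers were at 1573, 1666 and 1059 CPM in SMN and 1064 in IgG, and linker histones had the order as well. In part by small margins, so did microglia markers (191, 372 and 186 CPM in SMN, 158 in IgG) and the replication-independent variants. The lists of histone chaperones and of 3' end formation genes also had it by small margins. Neuronal, endothelial and erythroid markers did not have this order. The part of cell makeup in the core histone values was not tested.

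**Figure D5:**
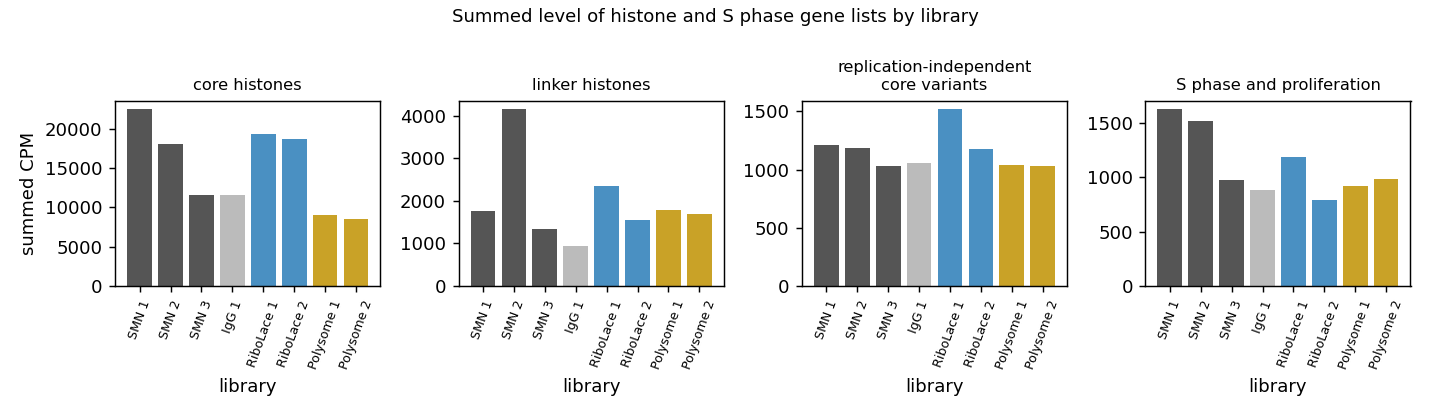
Summed CPM by library of core histones, linker histones, replication-independent core variants and S phase genes (dark grey SMN, light grey IgG, blue RiboLace, yellow polysomes). Between SMN libraries core histones range from 11567 to 22511 CPM and S phase genes from 975 to 1625 CPM, while core variants lie between 1029 and 1517 CPM in all 8.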

How the data were processed

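Ribosome-protected fragments were sequenced from 8 libraries of mouse brain. The authors deposited raw read counts per Ensembl transcript, with lengths of transcripts, coding regions and UTRs, per the file headers. Trimmomatic 0.36, Bowtie2 2.2.6, SAMtools and the GRCm38.p4 build are named in the submitters' processing notes. Each coding gene was represented by its transcript with the highest library-scaled sum. A check of 388 isoform pairs of near-equal length found counts that differed about as independent counts do (median chi-square 0.525, against 0.455), so reads matching several transcripts appear to be split and not repeated, and 1 transcript per gene can miss reads.

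edgeR 4.0.16 in R 4.3.3 (robust quasi-likelihood, two-sided, TMM, filterByExpr with minimum count 10) was fitted to the 2 groups compared, over all coding genes, with Benjamini-Hochberg adjustment and a threshold of 0.05. Printed SE is the log2 fold change over the square root of F. CPM are TMM-scaled over 8 libraries. Per-library log2 ratios used a prior count of 2. The code was tested on simulated data. Alternatives were DESeq2 1.42.0, limma-voom (limma 3.58.1), other scaling and filters, counts summed over transcripts, a replicate block and leaving out each replicate. Labels call the replicates biological. Members and lists were chosen with earlier results of these data known. Named were the 3 most abundant members of each class, up to 3 called members per class and comparison with the smallest p (2 where none was called), and, of each other list, called genes and up to 3 more; others are said to be chosen later. Slbp, Lsm11, Nasp and H3f3b were picked for their role.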

Additional observations from a re-analysis of the deposited data

How the results depend on the processing

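No named gene called in a comparison changed direction under any alternative run. Of the alternative values of these genes, 98 of 284 (22 genes) in RiboLace over polysome and 195 of 503 (37 genes) in SMN over polysome missed the threshold. In RiboLace over polysome the members called numbered 38 with a minimum count of 50, 8 with all 8 libraries in 1 fit, 0 with limma-voom and 1 with a replicate block, and 2 to 12 with a replicate left out. The median over all members, 0.97, was 1.04 with DESeq2, 0.87 without a filter, 1.20 with a minimum count of 50 and 1.10 with all libraries, and 0.77 to 1.11 with a replicate left out. The H2A median was 0.90 and 0.80 for the last of these settings (minimum count 50, all libraries) and 0.51 to 0.92 with a replicate left out, and the H3 median was 0.65 to 1.21 then. The H4 median was 1.36 with DESeq2, 1.19 without a filter, 1.51 with a minimum count of 50, 1.41 with all libraries, 1.39 with summed transcripts and 1.14 to 1.35 with a replicate left out.

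In SMN over polysome, 25 members were called higher with library totals, 15 with a minimum count of 50 and 16 with summed transcripts, and 0 to 43 with a replicate left out, against 42. One was called lower with library totals, without a filter, with all libraries and with limma-voom, and 0 to 2 with a replicate left out. Whether replicate numbers pair the samples could not be decided. Deviations of same-numbered samples correlated at 0.0299 for RiboLace and polysomes and at -0.0389 and 0.0214 for SMN and polysomes. In a group of 2 replicates the deviations mirror each other, and counting noise in shallow libraries draws a correlation toward 0. The replicate block called 1 member in RiboLace over polysome and 30 in SMN over polysome. No paired analysis was possible for SMN over IgG because IgG has 1 library. In that comparison 0 members were called under every alternative run.

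With the member of highest total count per class in place of class sums (Hist3h2a, Hist3h2ba, Hist1h3c and Hist1h4h, set mostly by the deep polysome libraries), H2A made up 10.3, 12.3, 17.9 and 23.4% of the 4 counts in SMN, IgG, RiboLace and polysomes, H2B 14.3, 13.0, 17.3 and 28.1%, H4 44.8, 52.1, 46.3 and 28.3%, and H3 30.7, 22.6 and 20.2% in SMN, IgG and polysomes. With summed transcripts H2B made up 21.0, 22.4 and 26.6% in SMN, IgG and polysomes, H4 33.8% in RiboLace, and H2A, H3 and H4 24.6, 19.5 and 29.3% in polysomes.

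The value of Hist3h2ba in RiboLace over polysome was above 0 in 9 settings: 0.056 with DESeq2, 0.039 with library totals, 0.0029 with TMM without histone genes, 0.22 with a minimum count of 50, 0.11 with all libraries, 0.012 with limma-voom, 0.098 with summed transcripts, 0.28 without RiboLace replicate 2 and 0.09 without polysome replicate 1. With a replicate left out it ran from -0.61 to 0.28, Hist3h2a from -0.20 to 0.43 and Hist4h4 from -0.27 to 0.68. In SMN over polysome, Hist2h4 ran from -0.069 to 0.71 and Hist4h4 from -0.18 to 0.91 with a replicate left out, both lowest without SMN replicate 2. The causes were not tested. With 9 to 13 reads per member at the median, RiboLace depth limits single genes.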
